A study of Mus musculus with 2 samples.

Results

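The 10 WNT ligand genes Wnt2, Wnt4, Wnt5a, Wnt5b, Wnt6, Wnt7b, Wnt9a, Wnt10b, Wnt11 and Wnt16 were followed in mesenchymal stem/progenitor cells (MSPC) of mouse bone marrow, a stromal population able to give rise to bone, cartilage and fat. They are 10 of the 19 mouse WNT ligand genes and of 35275 gene identifiers in the table. They were matched by symbol through the Ensembl identifiers, and all 10 were found. The set was drawn up because Wnt16 was the gene lowest in the mutant relative to the control, so the mutant-to-control differences below describe the members and test nothing. The control library came from Ptpn11+/+ mice and the mutant library from Ptpn11E76K/+ mice, both on the C57BL/6 strain and both carrying Nestin-Cre, a recombinase driven by the Nestin promoter. Ptpn11 encodes the phosphatase SHP2 of the RAS-ERK pathway, and E76K is an activating change. Sorted cells carried CD140 and Sca-1 and lacked CD45 (blood), Ter-119 (erythroid) and CD31 (endothelium), and their polyadenylated RNA was sequenced. GEO lists a single sample for either genotype, although the design text mentions 2 replicates, and neither pooling of animals nor their age is stated.

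WNT proteins are secreted, lipid-modified signals. The enzyme porcupine attaches the lipid and the carrier Wntless brings the ligand to the cell surface. There it binds Frizzled receptors, with LRP5 or LRP6 when the signal stabilises beta-catenin, or with ROR and RYK receptors in the branches that do not use beta-catenin. In the skeleton, WNT signals act on bone formation and on the choice of stromal cells between bone and fat, and Wnt16 is known as a ligand made by osteoblast lineage cells that maintains cortical bone.

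The promoters of the 3 called ligands, Wnt16, Wnt4 and Wnt11, are shown first, with Wnt9a beside them for an intermediate difference. RefSeq promoter windows (assembly GRCm38.p6), which run from 250 bases before to 50 bases after a transcription start, were found for 8 of the 10 members, with 11 windows in all. Wnt5a and Wnt7b had no entry in the table used. Each sequence below is the stretch of the first such window that lies outside annotated exons and outside the RefSeq gene. Capitals mark matches, on either strand, to the AP-1 motif TGAGTCA, the ETS motif CCGGAA, the TCF/LEF motif CTTTGA, the MYC E-box CACGTG, the GC box GGGCGG, the TATA box TATAAA or the CCAAT box CCAAT. The last was added after the Wnt16 sequence had been read.
Wnt16, chr6:22287977-22288177, plus strand: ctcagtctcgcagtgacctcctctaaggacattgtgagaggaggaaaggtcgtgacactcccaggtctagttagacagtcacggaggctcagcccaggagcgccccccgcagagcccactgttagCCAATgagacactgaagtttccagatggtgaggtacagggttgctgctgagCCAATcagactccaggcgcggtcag
Wnt4, chr4:137277385-137277488, plus strand: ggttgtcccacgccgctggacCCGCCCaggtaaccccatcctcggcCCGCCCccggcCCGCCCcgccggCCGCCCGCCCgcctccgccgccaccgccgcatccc
Wnt11, chr7:98834862-98835083, plus strand: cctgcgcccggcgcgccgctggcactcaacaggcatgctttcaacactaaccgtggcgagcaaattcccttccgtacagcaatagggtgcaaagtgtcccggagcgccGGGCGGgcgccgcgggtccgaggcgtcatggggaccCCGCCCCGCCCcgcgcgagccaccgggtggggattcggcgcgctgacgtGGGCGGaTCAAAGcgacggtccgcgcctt
Wnt9a, chr11:59306680-59306848, plus strand: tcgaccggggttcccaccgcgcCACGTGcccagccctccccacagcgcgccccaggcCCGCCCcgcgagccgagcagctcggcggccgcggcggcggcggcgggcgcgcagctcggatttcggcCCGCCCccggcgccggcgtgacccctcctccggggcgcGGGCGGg
The full Wnt16 window held 58.0% G and C, with an observed-to-expected CpG ratio of 0.402, close to the median of 0.384 over 32851 mouse windows. It held no GC box and 2 CCAAT boxes, which are the capital stretches above. The Wnt4 window held 84.3% G and C, a CpG ratio of 0.977 and 8 GC boxes, some of which overlap. The first of the 2 Wnt11 windows held 71.3% G and C, a CpG ratio of 1.18, 4 GC boxes, a TCF/LEF match and a TATA match. The Wnt9a window held 83.3% G and C, a CpG ratio of 1.12, 5 GC boxes and a MYC E-box match. Of members not shown, the Wnt6 window held 76.7% G and C and 6 GC boxes. The 3 Wnt5b windows held 53.0 to 78.0% G and C, and the first of them also a TCF/LEF match. The Wnt2 window held 65.7% G and C, 2 GC boxes and 1 CCAAT box, and the Wnt10b window 66.3% and no GC box. A relation of base content to the ligand levels was not tested. Of all windows, 35.7% held a GC box, 37.4% a CCAAT box, 16% the TCF/LEF letters, 13.6% the TATA letters and 7.15% the E-box. AP-1 letters were present in 5.2% of all windows and, among the members, only in a Wnt5b window, and ETS letters in 14.9% and only in the second Wnt11 window. These matches describe letters and were not tested for binding.

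The sequencing gave 22328659 counts for control MSPC and 18010963 for mutant MSPC. Levels are given in CPM, counts scaled to library size, here with edgeR's TMM factors. Folds come with a 95% exact Clopper-Pearson interval, computed from how a gene's counts divide between the libraries. Such intervals cover counting error only. No test between genotypes was possible with 1 library each. Of the sort's markers, the blood gene Ptprc had 1 count in the control library and 12 in the mutant one, the endothelial gene Pecam1 had 5 and 2, in that order, while the CD140 gene Pdgfra had 2073 and 1792. Ly6a, which encodes Sca-1, was 2.67-fold lower (2.44 to 2.93) in the mutant library and Nes was 2.76-fold higher (2.67 to 2.86).

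Wnt16 dominated the ligand transcripts of the control library and made up little of those of the mutant library. Wnt5a, the main activator of the beta-catenin-independent branch, was the second ligand of the control and the first of the mutant. Wnt11 and Wnt4 were several times higher in the mutant library, from low levels. Wnt9a was also higher, less far apart and not called. The intervals of Wnt5b and Wnt6 included equal levels, and the remaining members had at most 10 counts in a library. A gene was taken as measured from 20 counts upwards, summed over the libraries, and as higher or lower once its entire interval was past 2-fold. Of the 10 members, 7 were measured, of which 2 were called higher, 1 lower and 4 not called. Over all 13142 measured genes, 15.3% were called, 6.98% higher and 8.29% lower. The members were chosen on this same contrast, so nothing is read from their count against these shares.

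**Figure D1:**
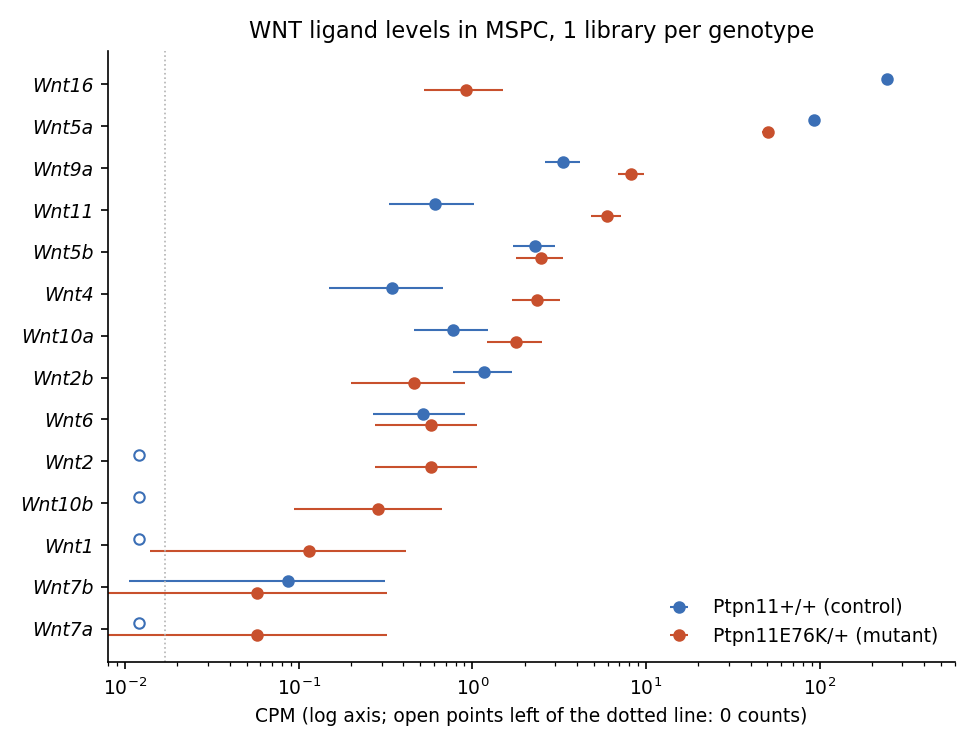
Level of each WNT ligand with at least 1 count, in CPM on a log axis, in the control (blue) and mutant (red) library. Points are single libraries, lines are 95% exact Poisson intervals of the count, and open points mark 0 counts. Wnt16 runs from 245 CPM in the control to 0.92 CPM in the mutant library.

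Wnt16 (ENSMUSG00000029671) had 5659 counts in control MSPC and 16 in mutant MSPC. These were 245 CPM (238 to 251) and 0.92 CPM (0.526 to 1.49). The mutant level was 266-fold lower (164 to 466), and at the control's level 4254 counts would have been counted at the mutant's depth. By CPM, Wnt16 ranked 649th of the 13142 measured genes in the control and 12003rd in the mutant. Among 4763 genes with at least 1000 control counts, 15 had their whole interval beyond 10-fold lower, and Wnt16 was the 1 gene beyond 100-fold lower. In bulk RNA, fewer cells that express a gene and less RNA per cell cannot be told apart.

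**Figure D2:**
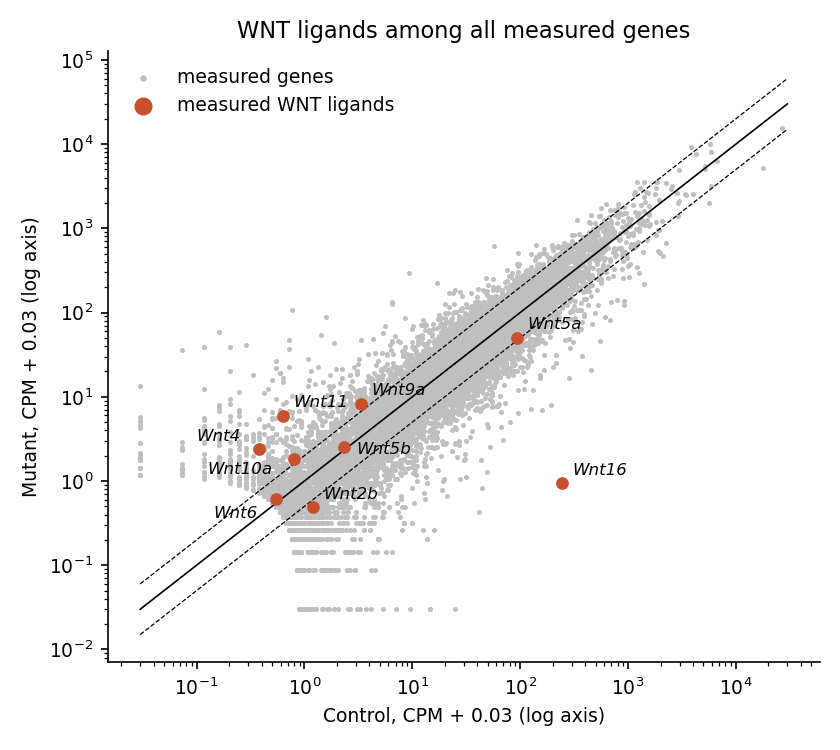
Each measured gene by its CPM in the control (x) and in the mutant library (y), both plus 0.03 on log axes, with the measured WNT ligands in red. The solid line marks equal levels and the dashed lines 2-fold differences. Wnt16 lies far below the cloud, at 245 and 0.92 CPM, and Wnt5a near the lower dashed line.

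Wnt5a had 2148 counts in control MSPC and 871 in mutant MSPC, or 92.9 CPM (89.0 to 96.9) and 50.1 CPM (46.8 to 53.5). It was 1.85-fold lower in the mutant library (1.71 to 2.01) and was not called. With trends over GC content and transcript length taken out the value was 1.53-fold lower. A transcript antisense to Wnt5a, Gm2670, had 8 and 6 counts. Wnt5b, its close relative and a ligand of cartilage development, had 53 and 43 counts, or 2.29 and 2.47 CPM, and the ratio of 1.08 (0.705 to 1.65) includes equal levels. Wnt5b overlaps the gene Fbxl14 on the opposite strand, which had 743 and 845 counts. Whether the counting used strand is not stated in the labels or the table, so reads of that pair cannot be told apart.

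Wnt11, a ligand of the beta-catenin-independent branch that acts in cell movement, had 14 counts in control MSPC and 103 in mutant MSPC, or 0.605 CPM (0.331 to 1.02) and 5.92 CPM (4.84 to 7.18). It was 9.79-fold higher in the mutant library (5.58 to 18.5). Wnt4, which signals through either branch, had 8 and 41 counts, or 0.346 CPM (0.149 to 0.682) and 2.36 CPM (1.69 to 3.20). It was 6.82-fold higher (3.15 to 16.8), but it passed the count minimum only through the mutant library. Both genes thus differed in the direction opposite to Wnt16 and Wnt5a, at levels far below those of Wnt16 in the control.

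Wnt9a, a ligand of joint and cartilage development, had 77 and 143 counts, or 3.33 CPM (2.63 to 4.16) and 8.22 CPM (6.93 to 9.69). It was 2.47-fold higher in the mutant library (1.86 to 3.30) and was not called. Wnt6 had 12 and 10 counts, with a ratio of 1.11 (0.429 to 2.80) that leaves either direction possible. Wnt2, a ligand of lung and vessel development, had 0 and 10 counts. With the control set to a floor of 3 counts, Wnt2 was 4.43-fold higher in the mutant library. The exact lower bound of its fold was 2.98. Wnt10b, which favours bone over fat in marrow stroma, had 0 and 5 counts, 2.22-fold higher with that floor (exact lower bound 1.22). Wnt7b, which promotes bone formation, had 2 and 1 counts, and no fold is given. Taken as a limit of 3 counts, a count of 0 leaves room for 0.130 CPM in control and 0.173 CPM in mutant MSPC.

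**Figure D3:**
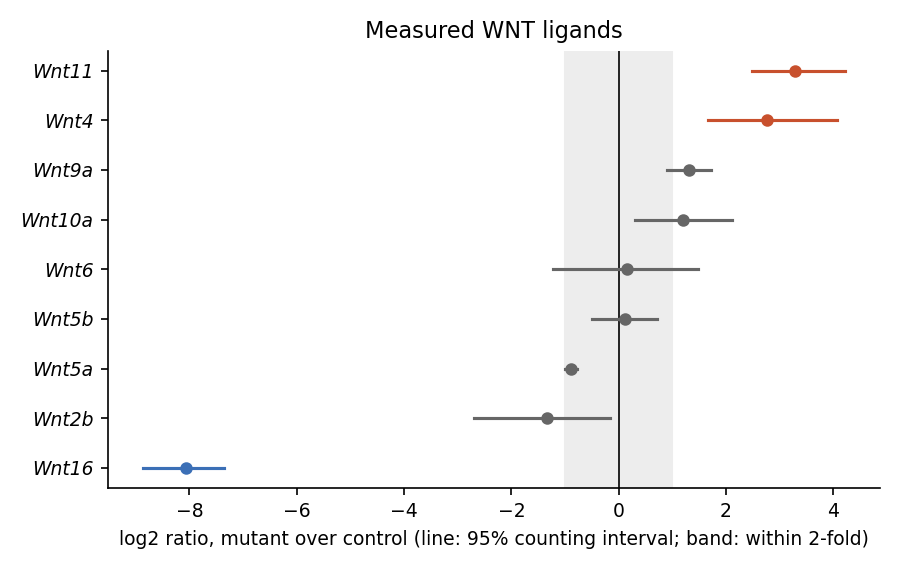
Ratio of the mutant to the control library on a log2 scale for the 9 WNT ligands with at least 20 counts, with 95% counting intervals as lines and a band for differences within 2-fold. Red marks genes called higher, blue genes called lower and grey genes not called. Wnt11 and Wnt4 lie wholly above the band and Wnt16 wholly below it.

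Of the 9 ligands outside the set, 2 were measured and 0 called. Wnt2b had 27 and 8 counts and was 2.54-fold lower in the mutant library (1.12 to 6.46). Wnt10a had 18 and 31 counts and was 2.29-fold higher (1.24 to 4.35). Wnt1 had 0 and 2 counts and Wnt7a had 0 and 1. The remaining 5, Wnt3, Wnt3a, Wnt8a, Wnt8b and Wnt9b, had 0 counts in both libraries. No ligand other than Wnt16 and Wnt5a thus exceeded 8.22 CPM in either library.

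The summed counts of all 19 ligands were 8018 in control and 1285 in mutant MSPC, 4.69-fold lower (4.42 to 4.98). Without Wnt16 the sums were 2359 and 1269, which was 1.40-fold lower (1.30 to 1.5). Without Wnt16 and Wnt5a the sums were 211 and 398, and the direction turned, to 2.51-fold higher (2.12 to 2.98). The lower total in the mutant library therefore rested on these 2 genes, and the other ligands together went the other way.

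Wnt16 made up 70.6% of the ligand counts in the control (69.6 to 71.6) and 1.25% in the mutant library (0.713 to 2.01). Wnt5a made up 26.8% (25.8 to 27.8) and 67.8% (65.2 to 70.3). The share of Wnt9a was 0.960% (0.759 to 1.20) and 11.1% (9.46 to 13.0), and that of Wnt11 was 0.175% (0.0955 to 0.293) and 8.02% (6.59 to 9.64). A share can grow because another ligand is lower. That of Wnt5a grew while its own level was lower in the mutant library, whereas Wnt9a and Wnt11 were higher in level as well.

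**Figure D4:**
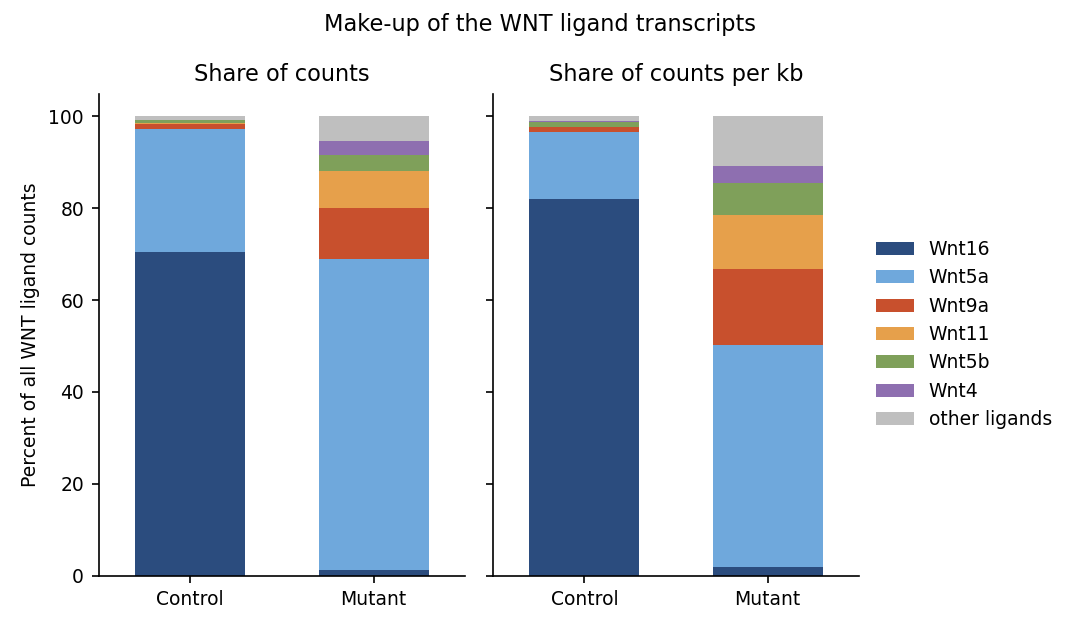
Make-up of the WNT ligand counts in each library, in percent, as counts (left) and as counts per kilobase of the longest transcript (right). Wnt16 (dark blue) takes 70.6% of control counts and 1.25% of mutant counts, where Wnt5a (light blue) takes 67.8%.

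Levels of different genes were compared as CPM per kilobase of the longest annotated transcript. In the control the order was Wnt16 (74.5 CPM per kilobase), Wnt5a (13.2), Wnt9a (1.0), Wnt5b (0.966), Wnt2b (0.352), Wnt10a (0.315), Wnt6 (0.251), Wnt11 (0.175), Wnt4 (0.0825) and Wnt7b (0.0254). Wnt16 stood 5.62 times above Wnt5a (5.35 to 5.91), and Wnt5a 13.2 times above Wnt9a (10.5 to 16.8). These intervals cover counting error, and the choice of length moved the ratios further: with the median transcript length per gene they were 2.33 (2.22 to 2.45) and 73.8 (58.8 to 93.9). Wnt9a and Wnt5b did not differ beyond counting error with either length. Below Wnt2b no ligand differed from the next beyond it with the longest transcript, whereas with the median length Wnt6 stood 4.21 times above Wnt4 (1.58 to 11.9).

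In the mutant library Wnt5a led with 7.15 CPM per kilobase, followed by Wnt9a (2.48), Wnt11 (1.72), Wnt5b (1.04), Wnt10a (0.722), Wnt4 (0.562) and Wnt16 (0.280). Wnt5a stood 2.88 times above Wnt9a (2.41 to 3.47), Wnt9a 1.44 times above Wnt11 (1.11 to 1.88) and Wnt11 1.65 times above Wnt5b (1.14 to 2.41). With the median length Wnt5a stood 16.1 times above Wnt9a (13.5 to 19.4), and Wnt9a and Wnt11 changed places, with Wnt9a at 0.667 times the level of Wnt11 (0.514 to 0.867). With either length Wnt16 and then Wnt5a led in the control, and Wnt5a led in the mutant library. Wnt5b, Wnt10a and Wnt4 did not differ from one to the next with the longest transcript. Wnt16, first in the control, did not differ from Wnt6 beyond counting error here. Per kilobase, Wnt16 took 81.9% of the ligand pool in the control, but 68.9% when the median length was used, and Wnt5a took 48.3% of the mutant pool, but 78.5% with that length.

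None of the measured genes beside the members on the chromosome was called with TMM scaling and the 2-fold rule. The 10 members lie on 7 chromosomes, with Wnt2, Wnt5b and Wnt16 all on chromosome 6. Of 40 protein-coding neighbours of the members, counting 2 on either side in the RefSeq gene order, 25 were measured. Of these, 0 were called higher and 0 lower, beside 6.98% and 8.29% of all measured genes. Next to Wnt16, Ing3 had 285 and 266 counts, with a ratio of 1.24 (1.05 to 1.47), and Fam3c had 3134 and 1954, 1.21-fold lower (1.14 to 1.28) in the mutant library. Cped1 lies directly beside Wnt16 and had 931 and 308 counts, 2.27-fold lower (1.996 to 2.59). It was called lower under total-count and upper-quartile scaling. Ptprz1, with 11 and 1 counts, was not measured.

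The measured genes closest to Wnt16 in their pair of levels were Cdkn2a, Pygo1, Lrrn3, Galnt14 and Wif1. Closeness was the Euclidean distance over log2 CPM in the 2 libraries, which is a thin measure over so few points, and all 5 were still 2.37 to 2.66 log2 units away. Pygo1, which encodes a co-activator of beta-catenin, had 1032 and 14 counts and Wif1, which encodes a secreted WNT-binding inhibitor, had 996 and 30. Lrrn3 had 1589 and 53 counts and Galnt14 had 1202 and 44. Wnt16 was picked as the gene lowest in the mutant relative to the control, so a wide gap to its nearest genes follows from that choice.

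The rest of the pathway is given from lists by role, which together hold 117 genes. Of these 95 were measured, 5 were called higher and 20 lower in the mutant library, beside 6.98% and 8.29% of all measured genes. The lists were chosen with earlier results of these data known, so nothing is read from their counts against these shares. The median log2 ratio of the 95 was -0.10 and that of all measured genes 0.01. Of the genes for ligand processing and release, 3 of 13 measured were lower and 0 higher (median log2 ratio 0.01). Porcn, the porcupine gene, had 351 and 53 counts, a 4.98-fold lower level (3.72 to 6.78). The glypican gene Gpc4 was 3.41-fold lower (3.25 to 3.59) and Trabd2b, whose protease cleaves WNT proteins, 2.49-fold lower (2.32 to 2.67). The carrier gene Wls, with 13216 and 5688 counts, was 1.75-fold lower (1.69 to 1.80) but not called.

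Among receptors, 5 of 15 measured were lower and 0 higher (median log2 ratio -0.30). Fzd3, with 294 and 12 counts, was 18.4-fold lower (10.4 to 36.1). The co-receptor genes Ror1 and Ptk7 were 3.42-fold (2.78 to 4.24) and 3.26-fold lower (2.96 to 3.60). Lrp6, the most abundant receptor gene by CPM, was 2.19-fold lower (2.10 to 2.28), but was not called with the length and GC trends removed. Fzd1 was also called lower, 2.43-fold (2.27 to 2.62), and Fzd5 and Fzd6, 2.15-fold (1.92 to 2.41) and 2.18-fold higher (1.96 to 2.42), were not called. Both were called higher with the length and GC trends removed and beyond 1.5-fold.

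Of 15 secreted WNT inhibitors and Kremen receptors, 4 were measured, of which 3 were lower and 0 higher (median log2 ratio -3.20). Sfrp4, with 4441 and 137 counts, was 24.4-fold lower (20.6 to 29.1), Wif1 was 24.96-fold lower (17.4 to 37.2) and Dkk3 3.48-fold lower (3.37 to 3.59). In this list 7 genes had 0 counts in both libraries, among them Dkk1 and Sost. Among R-spondins, which amplify WNT signals, their LGR receptors and the receptor ubiquitin ligases, 5 of 9 were measured, of which 1 was higher and 2 lower. Rspo2, with 10521 and 358 counts, was 22.1-fold lower (19.9 to 24.6), and Lgr4 was 6.30-fold lower (5.95 to 6.68). Lgr6 had 4 and 162 counts and was 53.9-fold higher (20.6 to 200.1), but it passed the count minimum only through the mutant library.

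**Figure D5:**
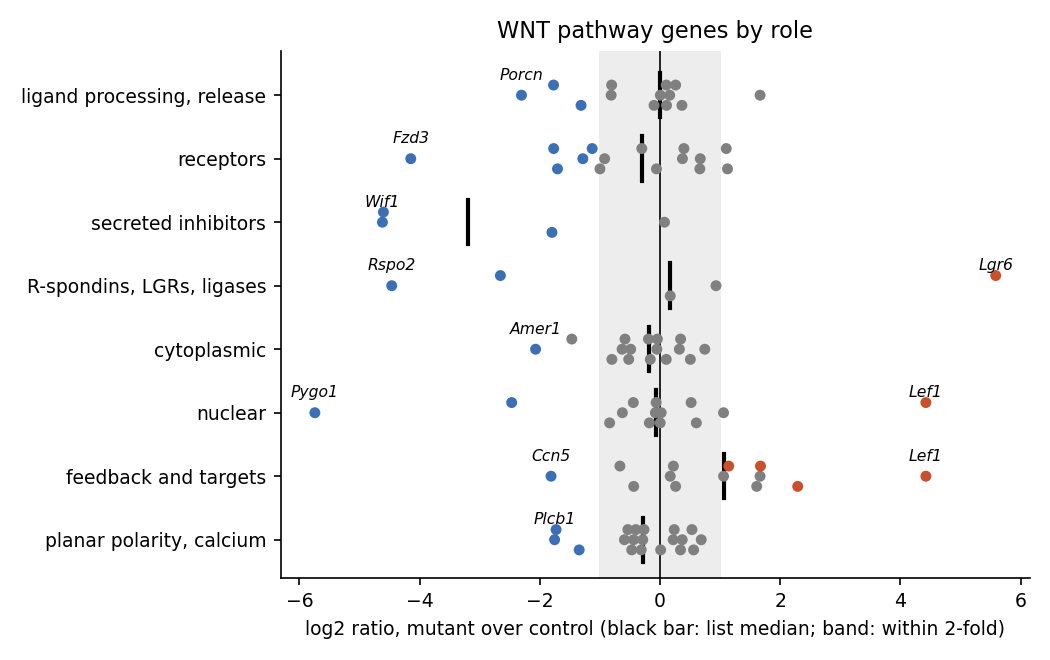
Log2 ratio of the mutant to the control library for each measured gene of the 8 WNT pathway lists, with list medians as black bars and a band for differences within 2-fold. Red marks genes called higher and blue genes called lower, and a gene in 2 lists appears in both. Named are the outermost called genes of each list, such as Wif1, Rspo2, Lgr6 and Pygo1.

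Inside the cell, 1 of 16 cytoplasmic genes was lower and 0 higher (median log2 ratio -0.18). Amer1 was 4.21-fold lower (3.54 to 5.03), and Ctnnb1, the beta-catenin gene, had 13160 and 9542 counts, 1.04-fold lower (1.01 to 1.06). Of 14 nuclear genes, 2 were lower, Pygo1 by 55.4-fold (32.9 to 101.7) and the corepressor gene Tle2 by 5.55-fold (4.71 to 6.57), and 1 was higher (median log2 ratio -0.07). That was Lef1, a beta-catenin partner and target, with 3 and 56 counts and a ratio of 24.8 (8.07 to 124). It too passed the count minimum only through the mutant library and was lost at a minimum of 100 counts. Of 13 measured feedback and target genes, 4 were higher and 1 lower (median log2 ratio 1.06). Myc was 4.90-fold (4.42 to 5.44) and Ccn4 2.21-fold higher (2.05 to 2.38), though Ccn4 was not called under total-count scaling. Axin2, the usual readout of beta-catenin signalling, had 26 and 63 counts, 3.22-fold higher (2.01 to 5.30). Its call was lost under total-count and upper-quartile scaling, with the length and GC trends removed and with a 99% interval. Ccn5, with 43704 and 9350 counts, was 3.51-fold lower (3.44 to 3.59). Of 19 measured planar polarity and calcium branch genes, 3 were lower, Plcb1, Celsr2 and Prickle3, and 0 higher (median log2 ratio -0.29). Celsr2 was not called with the length and GC trends removed, nor Prickle3 with a 99% interval.

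Markers of other cells also differed between the libraries. For the counts of calls below, 6.98% of all measured genes were called higher and 8.29% lower. From a list of 16 monocyte and macrophage markers 10 could be measured and 8 were called higher in the mutant library, where Wnt11, Wnt4 and Wnt9a were higher too. Summed over the list, their levels were 14.4 and 60.4 CPM in control and mutant, 8 were at 0 in the control and 2 in the mutant, and 6 of the 8 calls rested on genes with fewer than 10 control counts. Osteoblast markers summed to 2429 and 738 CPM, with 3 of 8 measured lower and 0 higher, and chondrocyte markers to 2346 and 1435 CPM, with 5 of 9 lower and 1 higher. Both sums were lower in the library where Wnt16 was lower. Most of the osteoblast sum was Spp1 (2234 and 670 CPM), while Bglap had 0 and 1 counts and Ibsp 0 in both libraries. Col2a1 (1446 and 1083 CPM, not called) was the largest part of the chondrocyte sum. Acan had 1 count in each library and Col9a1 had 0. Smooth muscle and pericyte markers summed to 1490 and 2975 CPM, with 3 of 6 higher and 1 lower. Adipocyte markers summed to 24.6 and 39.7 CPM, Schwann and neural markers to 83.8 and 89.1 CPM, endothelial markers to 1.25 and 2.13 CPM, and lymphoid and erythroid markers to 0.692 and 0.518 CPM. Epithelial and epidermal markers summed to 58.0 and 23.4 CPM, but Epcam had 0 counts in both libraries, Krt5 had 0 and 1 and Krt14 had 0 and 3. The part of these marker differences in the ligand levels was not tested.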

How the data were processed

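The authors deposited raw read counts (whole numbers, without normalization) for 35275 Ensembl identifiers in 1 library per genotype. The submitters' processing notes name CASAVA, TopHat, edgeR and mm9. For the counter, its annotation and its use of strand the sources used here give nothing. Symbols matched 34490 identifiers. TMM factors were 1.036 (control) and 0.965 (mutant), from edgeR 4.0.16 under R 4.3.3. Ratios carry 95% exact Clopper-Pearson intervals (SciPy 1.17.1) that cover counting error only. PCR duplicates were not removed here, and no p-value is given. Log2 ratios of lists use a prior count of 0.5. Transcript lengths and GC content come from GENCODE M21 and neighbours and promoters from RefSeq, both on GRCm38 and not on the submitters' build. The members and lists were chosen with earlier results of these data known. Named genes are all WNT ligands, up to 3 called genes per direction and the most abundant member of each pathway list, the neighbours of Wnt16, the 5 genes nearest to it and the sort markers. Other genes were chosen after their values were seen. The intervals and calls were checked on simulated libraries that held counting error only, so spread between animals or libraries was not checked. Alternatives were total counts, DESeq2 1.42.0 and upper-quartile factors, removal of length and GC trends (statsmodels 0.14.6), and other minimums, folds, interval levels, prior counts and transcript lengths.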

Additional observations from a re-analysis of the deposited data

How the results depend on the processing

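Wnt16 was called lower and Wnt11 higher under each of the 9 alternative scalings, minimums, thresholds and interval levels, and Wnt16 ranged from 238-fold to 285-fold lower over the scalings. The members called higher were 1 instead of 2 at a minimum of 100 counts and beyond 4-fold, where Wnt4 dropped out, and 3 beyond 1.5-fold, where Wnt9a was added, and with no minimum count, where Wnt2 was added. Those called lower were 2 instead of 1 beyond 1.5-fold, where Wnt5a was added. The share of all measured genes called was 31.3% beyond 1.5-fold, 3.71% beyond 4-fold and 14.6% at a minimum of 100 counts. With no minimum count it was 11.1% of 19133 genes. Total counts gave 5.75% higher and 9.6% lower, and upper-quartile factors 6.73% higher and 8.6% lower. With the length and GC trends removed, Wnt5b and Wnt6 changed direction, at 0.968 and 0.986 times the control level, both uncalled. The summed ligand counts were 5.03-fold lower with total counts, 4.18-fold without the length and GC trends and 1.40-fold without Wnt16. Of the pathway genes, 3 instead of 5 were called higher with total counts, at a minimum of 100 counts and beyond 4-fold, and 9 beyond 1.5-fold. Those called lower were 7 instead of 20 beyond 4-fold. The pathway median log2 ratio was -0.20 with total counts. Shares per kilobase depended on the length used: in the control, Wnt16 took 81.9% with the longest transcript, 68.9% with the median length and 70.6% undivided, and Wnt5a 14.6%, 29.5% and 26.8%, and in the mutant library Wnt5a took 48.3%, 78.5% and 67.8%. The order per kilobase depended on it too: in the mutant library Wnt9a stood at 1.44 times the level of Wnt11 with the longest transcript and at 0.667 times with the median length, an alternative added after seeing the data. The neighbours called lower were 2 with total counts and beyond 1.5-fold (Cftr and Cped1) and 1 with upper-quartile factors (Cped1), and 3 were called higher beyond 1.5-fold, alternatives chosen after seeing the data. These alternatives vary the processing only, and the cause of the differences was not tested. Depth limits Wnt2, Wnt7b and Wnt10b, each at 10 counts or fewer. No paired analysis was possible because each genotype has 1 library.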
